A study of Mus musculus with 10 samples.

Results

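Ribosome profiling (Ribo-seq), which sequences the mRNA fragments that ribosomes protect from nucleases (ribosome footprints), was used here to follow 10 genes whose loss causes primary microcephaly or a related small-brain disorder. Most of their products act at centrosomes, spindles or the midbody. The genes are Aspm, Cdk5rap2, Wdr62, Mcph1, Cenpj, Stil, Cep152, Cep135, Nde1 and Cit. They were taken by gene symbol from the 22373 genes of the footprint table. The filter on low counts, 32 or more footprints in the sum of a stage's libraries at any stage, was passed by 13484 genes and by 9 of the 10. Cep152 did not pass and was described but not fitted. The tissue was neocortex of wild-type CD-1 mice with no genetic change or treatment, dissected at E12.5, E14, E15.5 and E17 (days of gestation) and at P0 (the day of birth), with 2 libraries at each of the 5 stages. Each library was made from a pool of brains of both sexes, so a replicate is a pool and not an animal. Since whole tissue was measured, fewer cells of a type and fewer footprints per cell cannot be told apart in any of the values below. Nor do footprints alone separate the amount of an mRNA from how much it is translated, and mRNA levels were not used here.

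The centrosome is built around a pair of centrioles, which duplicate in each cell cycle, and it organizes the poles of the mitotic spindle. In the embryonic neocortex the dividing cells are mainly radial glia at the ventricle. They divide to renew themselves or to make intermediate progenitors and neurons, and the neurons have left the cell cycle. Loss of the genes described here can shift or stop these divisions and leave a small brain, which is why they are known together as microcephaly genes. Aspm, Wdr62 and Cdk5rap2 act at spindle poles and in the pericentriolar material. Stil, Cenpj, Cep152 and Cep135 build new centrioles. Mcph1 acts in chromosome condensation and the DNA damage response, Nde1 as an adaptor of Lis1 and the motor dynein, and Cit in the last step of cell division.

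Many genes of the cell division programme carry CCAAT boxes in their promoters, which the factor NF-Y reads, and some carry a cell cycle homology region (CHR) or an E2F site. RefSeq promoter windows on GRCm38.p6 were at hand for 9 of the 10 genes, Wdr62 with 2 start sites, and not for Mcph1. In the 250 bases before the start, CCAAT on either strand (read as ATTGG on the opposite strand) was found in 6 of the 9, namely Aspm, Wdr62, Stil, Cep152, Cep135 and Nde1, whereas 37.5% of all 27025 genes with a window held it. The CHR letters TTTGAA or TTCGAA were found for 1 of the 9 (Cep152) and for 19.6% of all genes. An E2F site (TTTCCCGC, TTTGGCGC, TTTCGCGC or TTTGCCGC) was found for 1 of the 9 (Wdr62) and for 2.16% of all genes. The last 150 bases before the start are printed for the 4 genes with CCAAT that fell together from E14 to E15.5 (for Wdr62, the second window). Those of Cdk5rap2 and Cenpj, which had no match and were not called at that step, are set beside them. Each runs 5′ to 3′ on the strand of its gene, and capitals mark the CCAAT and E2F letters. The stretches lie at chr1:139454623-139454772 on the plus strand (Aspm), chr4:114999968-115000117 on the plus strand (Stil), chr16:14163125-14163274 on the plus strand (Nde1), chr7:30280411-30280560 on the minus strand (Wdr62), chr4:70410436-70410585 on the minus strand (Cdk5rap2) and chr14:56571847-56571996 on the minus strand (Cenpj).
Aspm: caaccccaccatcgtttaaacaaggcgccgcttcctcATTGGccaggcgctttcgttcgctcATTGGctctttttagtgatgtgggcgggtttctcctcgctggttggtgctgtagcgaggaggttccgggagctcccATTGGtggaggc
Stil: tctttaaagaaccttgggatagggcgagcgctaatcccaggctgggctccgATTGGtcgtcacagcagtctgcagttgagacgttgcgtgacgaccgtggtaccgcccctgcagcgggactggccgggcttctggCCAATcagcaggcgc
Nde1: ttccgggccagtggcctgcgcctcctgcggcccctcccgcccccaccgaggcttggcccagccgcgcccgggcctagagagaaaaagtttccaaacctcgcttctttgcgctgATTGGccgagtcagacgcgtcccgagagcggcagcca
Wdr62: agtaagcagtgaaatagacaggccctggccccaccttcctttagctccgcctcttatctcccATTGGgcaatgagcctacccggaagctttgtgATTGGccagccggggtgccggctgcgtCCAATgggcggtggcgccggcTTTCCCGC
Cdk5rap2: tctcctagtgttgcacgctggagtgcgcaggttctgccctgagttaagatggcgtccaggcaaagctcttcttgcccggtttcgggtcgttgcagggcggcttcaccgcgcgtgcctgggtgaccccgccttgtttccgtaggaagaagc
Cenpj: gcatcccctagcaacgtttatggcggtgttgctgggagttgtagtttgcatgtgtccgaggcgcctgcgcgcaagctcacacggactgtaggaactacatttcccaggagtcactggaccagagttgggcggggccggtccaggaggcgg
Aspm held 3 such boxes in this stretch, all as ATTGG. In Stil there were 2, in Nde1 there was 1, and Wdr62 held 3 with the E2F letters next to the start. Cep135 and Cep152 also held CCAAT, the former not called at that step and the latter not tested. Cit was called at that step and held none of these letters. The stretches of these genes are not printed. Those printed were picked by letters and by call, so they cannot show whether CCAAT goes with the fall. Such a link was not tested. A match is a run of letters and not a shown binding site.

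Total counts ran from 7544404 (P0 replicate 1) to 36129988 (E14 replicate 2) per library. Nde1 gave 116 to 3512 footprints in a library and the other 9 genes 1 to 370. The relative counting error was thus smallest for Nde1, and the P0 values of Cep152, Cep135, Stil and Aspm rested on few reads. The replicates differed most at P0, where the log2 ratio of replicate 1 to replicate 2 had an SD of 0.54 over 4559 well-counted genes, against 0.13 to 0.22 at the other stages. Levels are given as CPM (counts scaled to a common library size, here with TMM factors) and are compared within a gene only, because coding lengths were not used here. Other cells and transcripts moved with the stages, and their part in the results below was not tested. The summed level of 12 cortical neuron markers was 2490 and 2532 CPM at E12.5 and 11376 and 12973 CPM at P0, and that of 6 intermediate progenitor markers went from 260 and 315 CPM to 33.8 and 21.7 CPM. The 10 radial glia markers summed to 2204 to 2270 CPM at E12.5 and E14 and to 1508 and 2055 CPM at P0, although 7 of the 10 fell over the whole span and 2 rose (median log2 fold change -1.93). Fabp7, 1 of the 2 that rose, made up a mean of 969 CPM of the sum at E12.5 and 1486 CPM at P0. Choroid plexus markers (10 genes) stood at 1190 and 1194 CPM in the E14 libraries and at 11.4 and 14.5 CPM in those of E15.5. Meningeal fibroblast markers summed to 155 to 207 CPM in the 4 early libraries (E12.5, E14) and to 34.97 to 59.8 CPM later. Cxcl12 made up a mean of 92.9 CPM of this sum at E12.5 and 30.1 CPM at P0. From E14 to E15.5 all 10 of these markers fell, with a median log2 fold change of -4.12. Red blood cell markers summed to 10038 to 11603 CPM in the 4 early libraries and to 1438 and 1861 CPM at P0. Markers of the ganglionic eminence and interneurons went from 33.8 and 40.3 CPM at E12.5 to 180.1 and 195 CPM at P0. Over the same span endothelium markers went from 36.8 and 36.9 CPM to 13.1 and 15.55 CPM. Of the 10 glia markers tested 8 were higher at P0 and 1 lower (median log2 fold change 3.78), while their sum went from 242 and 252 CPM to 279 and 288 CPM because Aldoc, the 1 that was lower, made up 209 and 218 CPM of it at E12.5. Microglia markers lay between 16.7 and 30.1 CPM in all libraries. Histone genes whose symbols start with Hist (66 genes) took 38.5% of counts in E12.5 replicate 2 and 6.32% in P0 replicate 2.

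Between E12.5 and P0, 8 of the 9 genes tested fell and none rose, and Mcph1 was the exception. Stil fell 13.4-fold, Nde1 10.8-fold and Aspm 10.3-fold. Wdr62, Cit and Cep135 fell 3.35-fold to 4.04-fold, Cenpj 2.27-fold and Cdk5rap2 1.79-fold. A gene was called where limma-voom, fitted over all 10 libraries and all 13484 genes, gave a Benjamini-Hochberg adjusted p under 0.05 and a fold of at least 1.25. By this rule 32% of all genes tested were lower and 30.1% higher at P0 than at E12.5. The median log2 fold change was -1.85 over the 9 genes and -0.01 over all genes tested. In the F test over the 5 stages the same 8 genes passed, where 63.8% of all genes did. With edgeR and with DESeq2 the count from E12.5 to P0 was also 8 lower and 0 higher, with 0 genes higher at an unadjusted p under 0.05. It was 6 without P0 replicate 2, where Cdk5rap2 (adjusted p 0.0635) and Cep135 (adjusted p 0.0737) were not called. The same 2 calls were lost with sample quality weights (0.0608 and 0.123). The count was 7 with total counts as the only scaling, where Cdk5rap2 was not (log2 change -0.32).

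**Figure D1:**
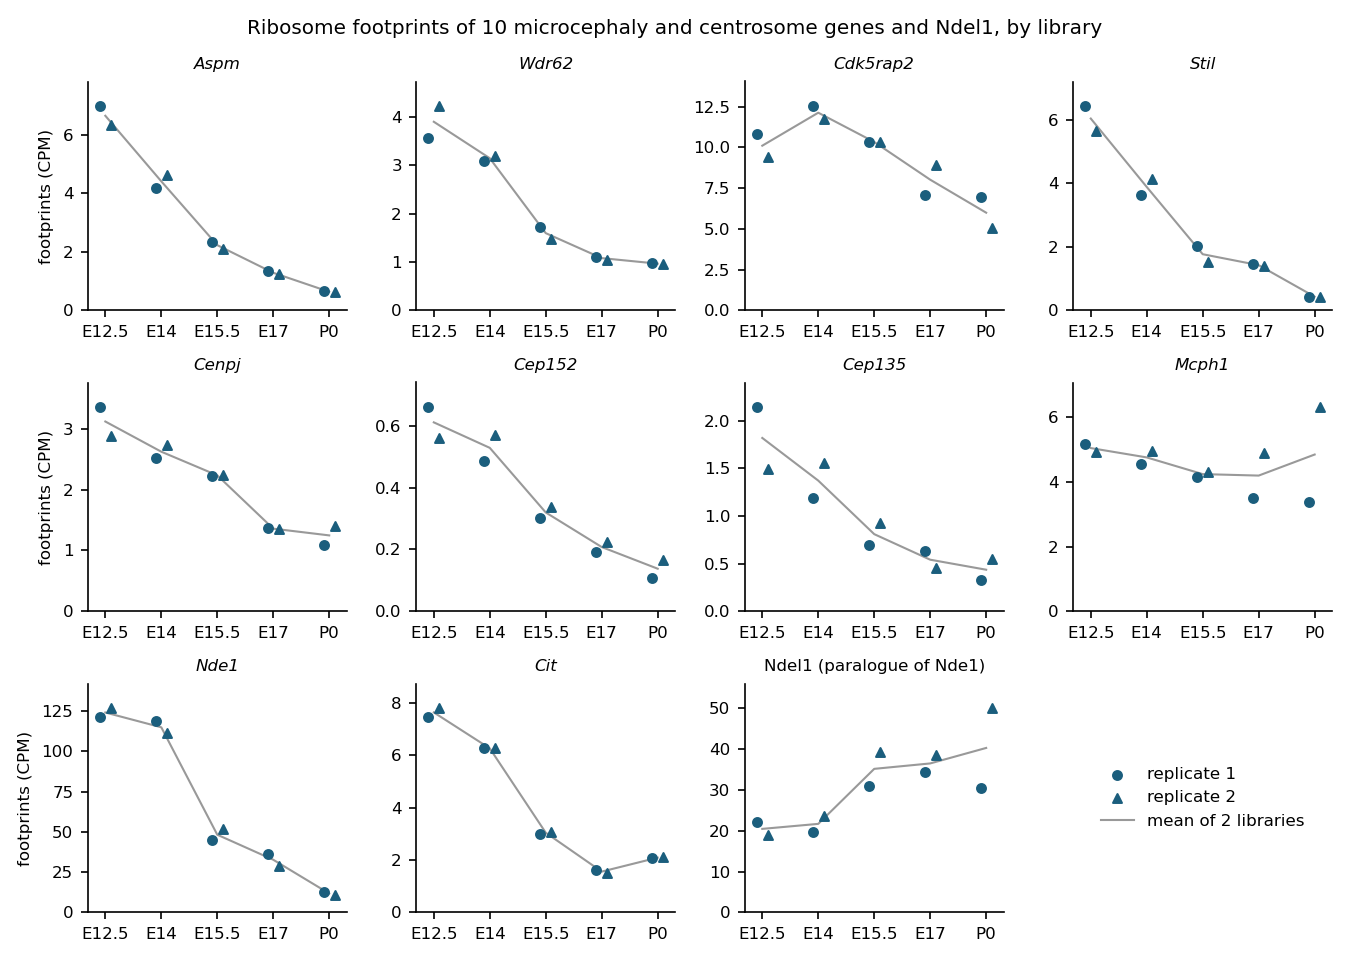
Footprint levels (CPM, each vertical axis from 0) of the 10 genes and of Ndel1, the paralogue of Nde1, at the 5 stages; circles are replicate 1, triangles replicate 2, and grey lines join the means of the 2 libraries. Aspm, Wdr62, Stil, Cep135, Nde1 and Cit start high and end low, Cdk5rap2 peaks at E14 with 12.54 and 11.72 CPM, and Mcph1 ends between 3.37 and 6.30 CPM, around its level at E12.5.

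At the spindle poles, the 3 genes differed in their course. Aspm (ENSMUSG00000033952), a microtubule minus-end protein that focuses spindle poles, measured 6.98 and 6.32 CPM at E12.5, 4.195 and 4.625 at E14, then 2.35 and 2.11 at E15.5, 1.33 and 1.24 at E17 and 0.652 and 0.620 at P0. Each stage lay below the one before it with no overlap between libraries. Aspm fell from E14 to E15.5 (log2 change -0.98, SE 0.14, adjusted p 0.00122), from E15.5 to E17 (-0.79, SE 0.17, adjusted p 0.0285) and from E17 to P0 (-1.02, SE 0.24, adjusted p 0.02), and over the whole span by 3.37 on the log2 scale (SE 0.21, adjusted p 4.4e-06). The change from E12.5 to E14 was -0.58 (SE 0.12, adjusted p 0.0733).

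Wdr62 (ENSMUSG00000037020), a spindle pole scaffold that also brings other microcephaly proteins to the centrosome, measured 3.57 and 4.22 CPM at E12.5, 3.09 and 3.20 at E14, then 1.72 and 1.48 at E15.5, 1.11 and 1.05 at E17 and 0.979 and 0.954 at P0. Both E15.5 libraries lay below both E14 libraries, and the E17 and P0 libraries were close together. It was called at 1 step, E14 to E15.5 (log2 change -0.96, SE 0.16, adjusted p 0.00238), and over the whole span (-2.01, SE 0.19, adjusted p 4.26e-05). From E17 to P0 its log2 fold change was -0.17 (SE 0.22, adjusted p 0.606).

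Cdk5rap2 (ENSMUSG00000039298) anchors the gamma-tubulin ring complexes, from which microtubules grow, in the pericentriolar material. It measured 10.8 and 9.38 CPM at E12.5, 12.54 and 11.72 at E14, then 10.3 and 10.3 at E15.5, 7.11 and 8.93 at E17 and 6.96 and 5.03 at P0. The E14 libraries were its highest and the P0 libraries its lowest, and none of the 4 steps was called, with log2 fold changes of 0.27, -0.23, -0.38 and -0.51 (SE 0.16 to 0.18, adjusted p 0.0839 to 0.478). Its whole fall was -0.84 (SE 0.18, adjusted p 0.00377), with a 95% interval from -1.26 to -0.43 that lay above the intervals of Aspm (-3.86 to -2.88) and Wdr62 (-2.46 to -1.57).

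Among the genes that build new centrioles, Stil (ENSMUSG00000028718), a partner of the kinase Plk4 that starts the procentriole, measured 6.43 and 5.65 CPM at E12.5, 3.62 and 4.15 at E14, then 2.02 and 1.52 at E15.5, 1.46 and 1.39 at E17 and 0.435 and 0.429 at P0. The P0 values rested on 4 and 18 footprints. Stil fell from E14 to E15.5 (log2 change -1.12, SE 0.18, adjusted p 0.00184) and from E17 to P0 (-1.69, SE 0.32, adjusted p 0.00914), and between these steps, from E15.5 to E17, its change was -0.32 (SE 0.20, adjusted p 0.375). Over the whole span it dropped by 3.74 on the log2 scale (SE 0.30, adjusted p 1.46e-05).

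Cenpj (ENSMUSG00000064128), also called CPAP, which sets the length of the centriole microtubules, measured 3.35 and 2.88 CPM at E12.5, 2.52 and 2.72 at E14, then 2.23 and 2.24 at E15.5, 1.36 and 1.35 at E17 and 1.09 and 1.41 at P0. The only step at which it was called was E15.5 to E17 (log2 change -0.71, SE 0.17, adjusted p 0.0386), and that call was lost in 13 of 19 other settings (adjusted p 0.0525 to 0.300), among them any fit without 1 library of E12.5 to E17. The fall over the whole span was called in all of them (-1.18, SE 0.18, adjusted p 0.000587). At E14 to E15.5, where Stil fell, its change was -0.24 (SE 0.15, adjusted p 0.261), and the difference between the genes at that step was not tested.

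Cep135 (ENSMUSG00000036403), part of the cartwheel on which a centriole is built, measured 2.144 and 1.495 CPM at E12.5, 1.19 and 1.55 at E14, then 0.693 and 0.929 at E15.5, 0.635 and 0.450 at E17 and 0.326 and 0.549 at P0, from 3 to 49 footprints per library. No step was called, the nearest being E14 to E15.5 (log2 change -0.81, SE 0.29, adjusted p 0.0612), and the change over the whole span was -1.74 (SE 0.37, adjusted p 0.00367). Cep152 (ENSMUSG00000068394), the scaffold that recruits Plk4, measured 0.660 and 0.561 CPM at E12.5, 0.486 and 0.570 at E14, then 0.301 and 0.338 at E15.5, 0.190 and 0.225 at E17 and 0.109 and 0.167 at P0, from 1 to 18 footprints per library. Its summed counts of 27 at E12.5 and 8 at P0 gave a level 3.84-fold lower at P0, and the exact 95% limits of this fold (binomial, for counting error alone) were 1.70 and 9.78.

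Mcph1 (ENSMUSG00000039842), also called microcephalin, which holds back chromosome condensation before mitosis and takes part in the DNA damage response, measured 5.17 and 4.90 CPM at E12.5, 4.55 and 4.94 at E14, then 4.16 and 4.31 at E15.5, 3.49 and 4.88 at E17 and 3.37 and 6.30 at P0. The P0 libraries stood on either side of the E12.5 libraries. From E12.5 to P0 its log2 fold change with all libraries was 0.06 (SE 0.26, adjusted p 0.851). The 95% interval of -0.54 to 0.66 contains no fall as large as the fitted fall of any of the other 8 genes. This value leaned on P0 replicate 2. Without that library the change of Mcph1 was -0.56, below this interval, and that of Cdk5rap2 was -0.52. The F test over the 5 stages gave an adjusted p of 0.617. The value of the last step depended on 1 library: from E17 to P0 it was 0.35 (SE 0.26, adjusted p 0.355) with all libraries, 0.62 without P0 replicate 1 (adjusted p 0.0277) and -0.26 without P0 replicate 2.

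Nde1 (ENSMUSG00000022678) links Lis1 to dynein, which positions the spindle and moves the nuclei of radial glia, and it has a close paralogue, Ndel1 (ENSMUSG00000018736), which is known from neurons and their migration. Nde1 measured 121 and 127 CPM at E12.5, 119 and 111 at E14, then 45.0 and 51.5 at E15.5, 36.6 and 28.9 at E17 and 12.6 and 10.9 at P0. The step from E12.5 to E14 was not called for Nde1 (-0.11 on the log2 scale, SE 0.13, adjusted p 0.740). It then fell at E14 to E15.5 (-1.26, SE 0.13, adjusted p 0.000305), E15.5 to E17 (-0.56, SE 0.14, adjusted p 0.0417) and E17 to P0 (-1.498, SE 0.15, adjusted p 0.00127). The whole fall was by 3.43 on the log2 scale (SE 0.15, adjusted p 8.28e-07).

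Ndel1 went the other way. It measured 22.0 and 18.8 CPM at E12.5, 19.7 and 23.6 at E14, then 31.0 and 39.2 at E15.5, 34.3 and 38.5 at E17 and 30.4 and 50 at P0, so that every library from E15.5 on stood above every earlier one. Ndel1 rose from E12.5 to P0 (log2 change 0.98, SE 0.24, adjusted p 0.00652) and at E14 to E15.5 (0.69, SE 0.23, adjusted p 0.0477), the step at which Nde1 fell; the call at that step was lost with edgeR (adjusted p 0.0508), without the filter (0.0664) and without any 1 of the 8 libraries before birth (0.0655 to 0.230). There were 5.52 and 6.74 Nde1 footprints for each Ndel1 footprint at E12.5 and 6.04 and 4.71 of them at E14. The ratio then went to 1.45 and 1.31 at E15.5, to 1.07 and 0.750 at E17 and to 0.414 and 0.218 at P0. This ratio does not depend on how libraries are scaled. Its log2 value was 3.45 lower in the 4 libraries of E17 and P0 than in the 4 of E12.5 and E14, with no overlap (exact permutation test, two-sided, p 0.0286, the smallest that 4 against 4 allows; adjusted p 0.0524 over the 11 comparisons of this kind). By the study's methods reads with several matches were kept in alignment and abundance was then estimated per transcript. Whether the count table comes from that step is not stated, so the sharing of footprints between the paralogues was not tested.

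**Figure D2:**
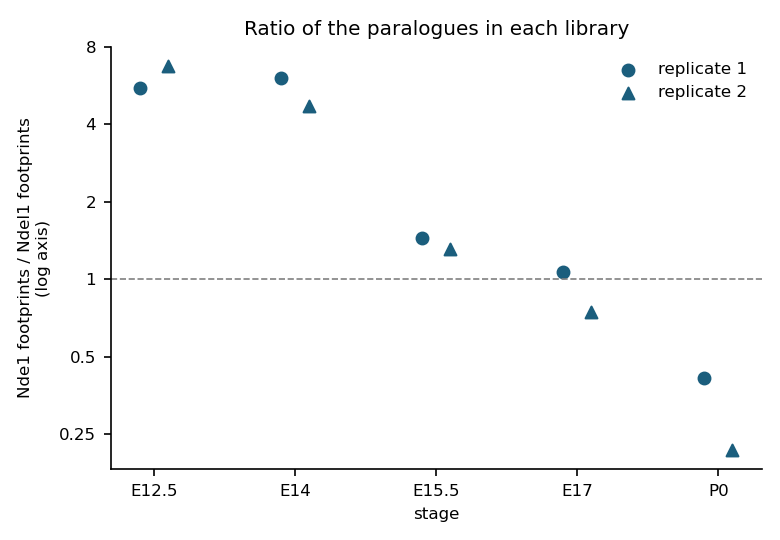
Footprints of Nde1 divided by those of Ndel1 in each library (log axis) at the 5 stages; circles are replicate 1, triangles replicate 2, and the dashed line marks equal counts. The 4 libraries of E12.5 and E14 lie between 4.71 and 6.74, those of E15.5 at 1.45 and 1.31, and those of P0 at 0.414 and 0.218.

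Cit (ENSMUSG00000029516) encodes citron kinase, which is needed for abscission at the midbody, and from the same gene neurons make citron-N, a form without the kinase domain. Counts per gene do not separate the forms. Cit measured 7.48 and 7.81 CPM at E12.5, 6.27 and 6.27 at E14, then 3.01 and 3.08 at E15.5, 1.619 and 1.501 at E17 and 2.07 and 2.12 at P0. The fall was called from E14 to E15.5 (log2 change -1.04, SE 0.12, adjusted p 0.00038) and from E15.5 to E17 (-0.95, SE 0.14, adjusted p 0.0108). Both P0 libraries then lay above both E17 libraries, with a log2 fold change of 0.43 (SE 0.15, adjusted p 0.0818) that passed with total counts as the only scaling (0.53, adjusted p 0.0420). Over the whole span Cit fell by 1.85 on the log2 scale (SE 0.13, adjusted p 8.2e-06).

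Step by step, 0 of the 9 genes were called from E12.5 to E14, 5 were lower from E14 to E15.5 (Aspm, Wdr62, Stil, Nde1 and Cit), 4 from E15.5 to E17 (Aspm, Cenpj, Nde1 and Cit) and 3 from E17 to P0 (Aspm, Stil and Nde1). None was called higher at any step. In all genes tested, 0.141% were lower and 0.497% higher at E12.5 to E14, and 19.6% lower and 16.5% higher at E14 to E15.5. At E15.5 to E17 3.43% were lower and 5.61% higher, and at E17 to P0 11.1% were lower and 9.46% higher. The medians of the 9 log2 fold changes were -0.29, -0.96, -0.56 and -0.17 at the 4 steps in turn. At E12.5 to E14, limma-voom gave 3 genes with an unadjusted p under 0.05 (Aspm, Stil and Cit, all lower), edgeR called 0 with 3 under 0.05, and DESeq2 called 0 with 1. The only gene with an unadjusted p under 0.05 in the direction of a rise was Cit at E17 to P0.

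**Figure D3:**
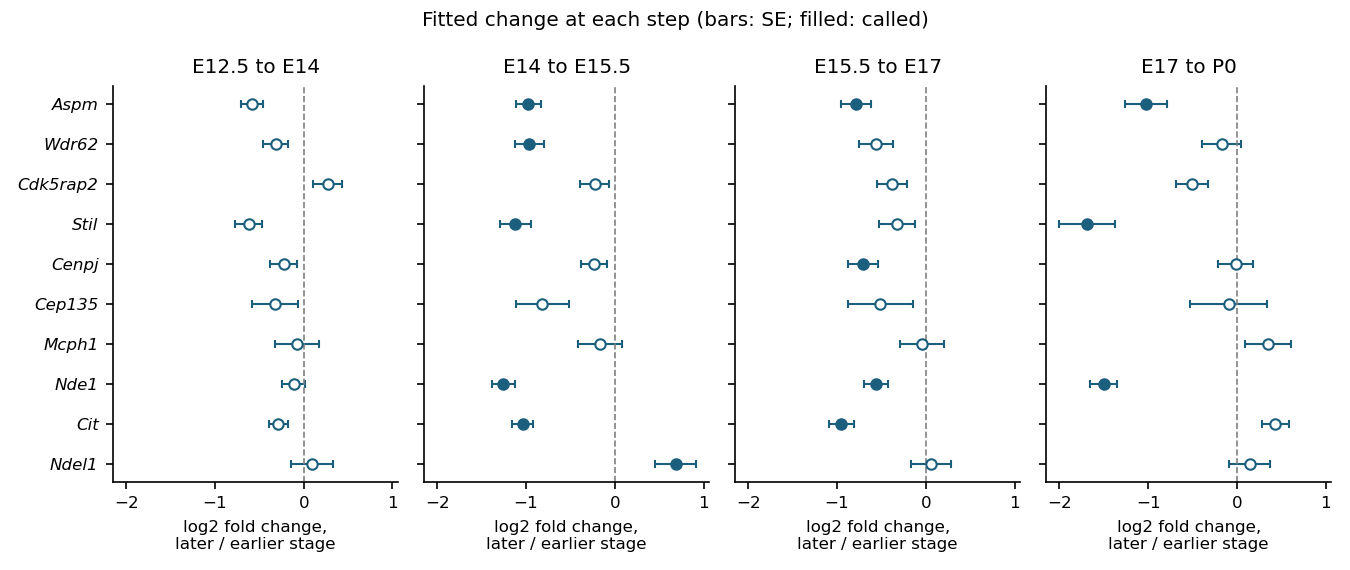
Fitted log2 fold change (later over earlier stage, bars are 1 SE) of 9 genes and Ndel1 at each of the 4 steps; filled circles were called and open circles were not. At E12.5 to E14 all circles are open, at E14 to E15.5 Aspm, Wdr62, Stil, Nde1 and Cit are filled between -0.96 and -1.26, and Ndel1 is filled on the other side of 0.

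Counts of the later steps leaned on the libraries and the tool used. From E15.5 to E17 the count was 2 with edgeR, with DESeq2 and with total counts as the only scaling, 1 without the filter, with the replicate block and without E12.5 replicate 1, and 2 without E12.5 replicate 2 or either E14 library. It was 0 without any 1 library of E15.5 or E17, where 0 to 18 of all genes were called in place of 1219. With sample quality weights it was 6, with Wdr62 (adjusted p 0.0188) and Cdk5rap2 (0.0259) added. Of 19 settings, the call at this step was lost in 13 for Cenpj, 12 for Nde1, 8 for Aspm and 4 for Cit. With edgeR the calls of Cenpj (adjusted p 0.0525) and Nde1 (0.0548) were lost, and with DESeq2 those of Aspm (0.165) and Cenpj (0.300). From E17 to P0 it was 1 without E17 replicate 1 or P0 replicate 2, 2 without E17 replicate 2, 1 when samples were weighted by quality, and 0 when only those 2 stages were fitted. Without P0 replicate 1 it was 4, with Cdk5rap2 added, and Mcph1 was called higher there. The count from E14 to E15.5 was 5 or 6 under all alternatives. With the E14 libraries left out, because choroid plexus markers were high in both, 6 of the 9 genes were lower at E15.5 than at E12.5 (the same 5 and Cep135), where 22.8% of all genes were lower and 20.9% higher.

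The 3 steps before birth are of equal length by the stage names, so the changes at neighbouring steps were set against each other. The fall of Nde1 at E14 to E15.5 exceeded its change at E12.5 to E14 by -1.14 (log2, SE 0.23, adjusted p 0.0361), and this contrast was called for 1 of the 9 genes; 2.83% of all genes tested were called in this direction and 0.912% in the other. That call was lost without any 1 of the 8 libraries of E12.5 to E17 (adjusted p 0.0526 to 0.227), without the filter (0.0522) and with total counts only (difference -0.91, adjusted p 0.0628). Cit came next with a difference of -0.75 (SE 0.19, adjusted p 0.0687). When the step E15.5 to E17 was set against E14 to E15.5, limma-voom called 0 of the 9 genes, with 2 under an unadjusted p of 0.05 (Stil and Nde1, both with a smaller fall at the later step). There edgeR called 0 with 2 and DESeq2 0 with 1. In all genes tested 4.66% were called in that direction and 3.72% in the other. The contrasts share the libraries of the middle stage.

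All 43 S phase genes and 48 of 54 G2 and M phase genes of a cell cycle list fell from E12.5 to P0, with median log2 fold changes of -2.79 and -3.63, so each of the 10 genes was also set against the median of these 97 genes in the same library. On this scale Mcph1 was 1.95 higher in the libraries of E17 and P0 than in those of E12.5 and E14, Cdk5rap2 1.43 higher, Cenpj 1.02 higher and Cep152 0.72 higher, all log2 and all with no overlap between the 4 early and the 4 late libraries. Cep152 had only 1 to 18 footprints per library, and the prior count of 2 raises its lowest log2 values most. Its difference and its lack of overlap therefore lean on that prior. Aspm was the only gene to move down relative to the list without overlap, from -2.38 ± 0.14 (SD, n = 4) to -2.75 ± 0.05 (SD, n = 4), a difference of -0.36. Each of these 5 had p 0.0286 in the exact permutation test (two-sided), the smallest it can give, and an adjusted p of 0.0524. Thus 0 of 10 passed. With adjustment over 11 comparisons no gene could pass by itself, since the smallest p passes only when enough comparisons share it. The count of 0 therefore does not show that no gene moved relative to the list. Cep135 (0.55, exact p 0.114), Wdr62 (0.41, exact p 0.286), Cit (0.22, exact p 0.6), Stil (-0.38, exact p 0.143) and Nde1 (-0.49, exact p 0.0571) overlapped. In the same measure 85.8% of all genes tested moved up relative to the cell cycle median without overlap, against 3 of the 9 tested here, and 1.77% moved down, against 1 of the 9. These are changes and not levels above or below the median.

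**Figure D4:**
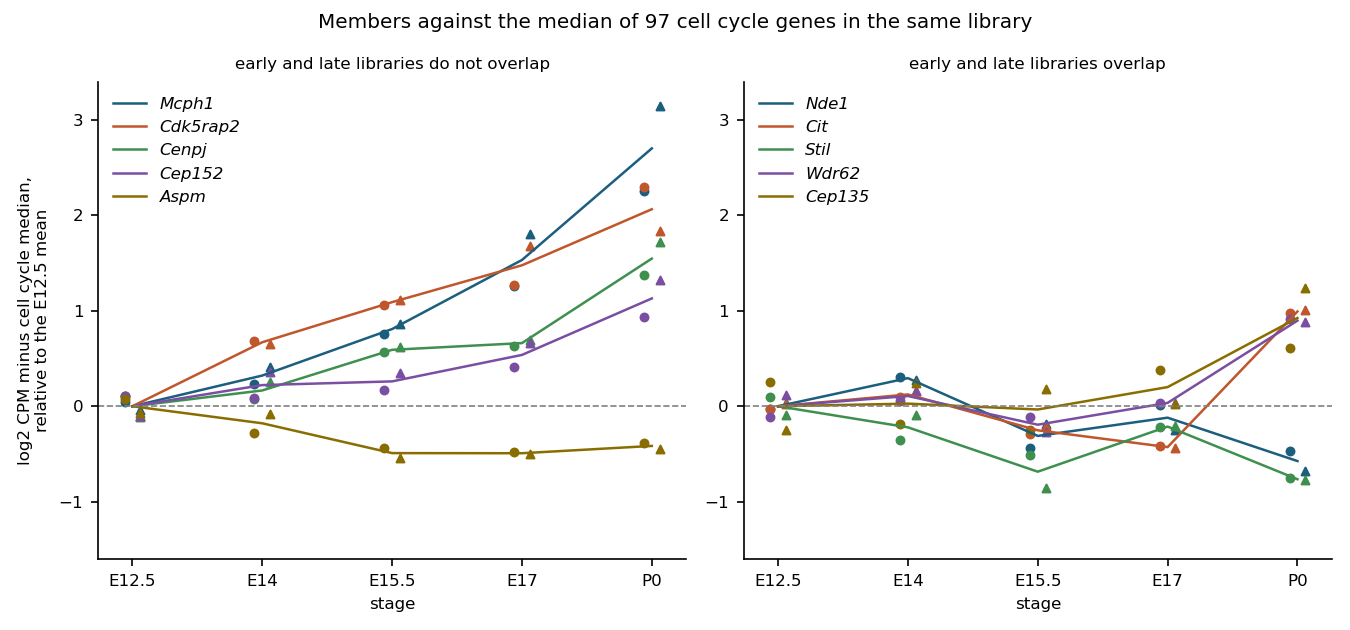
Log2 CPM of each gene minus the median of 97 cell cycle genes in the same library, set to 0 at the mean of the E12.5 libraries, at the 5 stages; circles are replicate 1, triangles replicate 2 and lines join stage means. On the left are the 5 genes whose early (E12.5, E14) and late (E17, P0) libraries do not overlap, with Mcph1 and Cdk5rap2 moving up relative to the list and Aspm moving down. On the right Nde1 and Stil end below 0 and Cit, Wdr62 and Cep135 end above it at P0.

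Counts for 7 lists of the wider centrosome and spindle machinery between E12.5 and P0 are set here beside the 32% lower and 30.1% higher of all genes tested, with no test between lists. Spindle pole and spindle microtubule genes (19 tested) had 15 lower and 2 higher with a median log2 fold change of -3.20, and cytokinesis and midbody genes (19 tested) had 14 lower and 1 higher with a median of -3.35. Of 21 other primary microcephaly genes 15 were lower and 3 higher (median -1.48). These 3 lists share genes with the G2 and M phase list, so they are not separate observations. Examples are Aurka, Tpx2 and Kif11 of the spindle list, Kif23 and Ect2 of the cytokinesis list, and Bub1 and Cenpe of the microcephaly list. Of 22 centriole assembly genes 13 were lower and 5 higher (median -0.93). The 32 genes of the pericentriolar material and gamma-tubulin had 20 lower and 3 higher (median -0.60), and the 13 genes of the centriole appendages, near the shares of all genes, 5 lower and 3 higher (median -0.12). The partners of Lis1 and dynein had 20 of 30 higher, 1 lower and a median of 0.56. Ndel1 is among the 20, and so are 4 nearly identical Dynlt1 copies (Dynlt1a, Dynlt1b, Dynlt1c and Dynlt1f), whose counts are uncertain. In the spindle list 12 of 19 genes were lower and 1 higher at E14 to E15.5 (median -0.92), and 13 of 19 were lower at E17 to P0 (median -1.09). Of the 22 centriole assembly genes 5 were lower and 4 higher at E14 to E15.5, near the 19.6% lower and 16.5% higher of all genes.

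**Figure D5:**
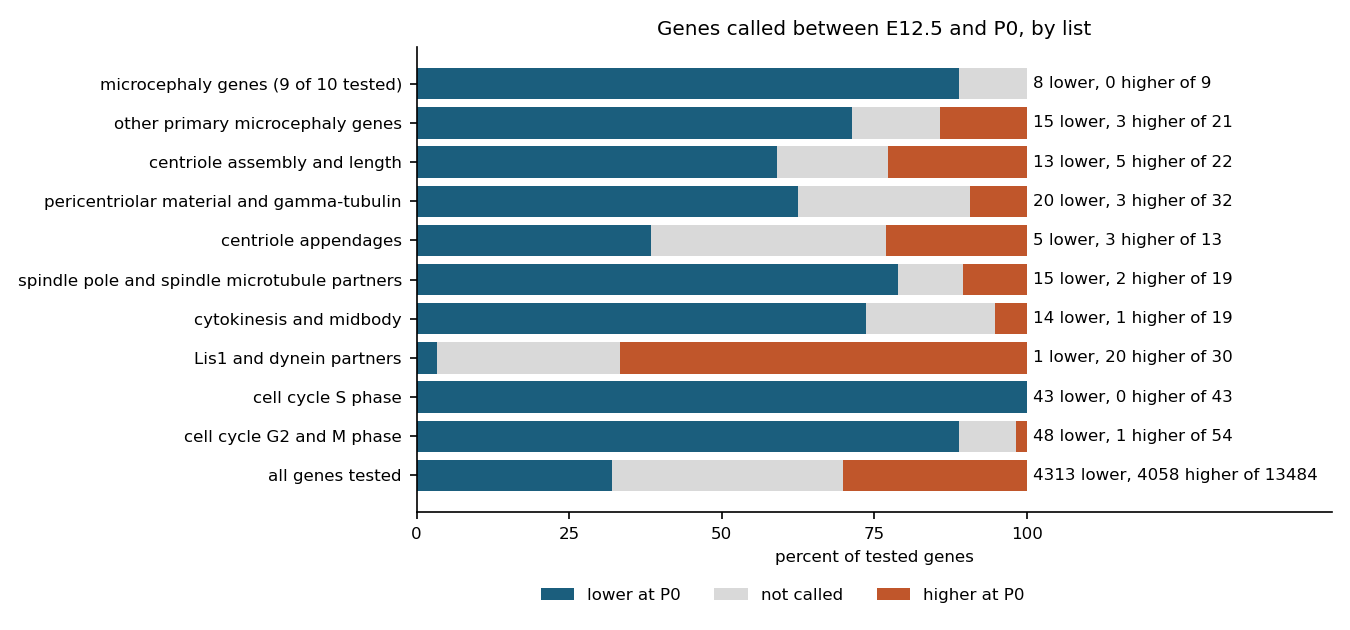
Percent of the tested genes of each list called lower (blue), not called (grey) or called higher (orange) at P0 than at E12.5, with the counts at the right. The top bar (8 of 9 lower) and those of the spindle and cytokinesis lists (15 and 14 of 19 lower) are mostly blue, and that of the Lis1 and dynein list is mostly orange (20 of 30 higher). Some lists share genes.

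In each list the called gene with the largest fall and the one with the largest rise are named, where the mean count was 100 or more. Kif15, a spindle kinesin, went from 24.5 ± 1.4 to 0.970 ± 0.45 CPM (mean ± SD, n = 2 at E12.5 and at P0, as for all values here; log2 fold change -4.38, SE 0.22). Kif20a, a kinesin of cytokinesis, went from 44.4 ± 0.61 to 2.36 ± 0.41 CPM (-4.14, SE 0.14), and Knl1, a kinetochore scaffold and microcephaly gene, from 11.4 ± 1.7 to 0.805 ± 0.092 CPM (-3.85, SE 0.26). Nedd1, which recruits gamma-tubulin, fell by 3.48 on the log2 scale (SE 0.47) with P0 libraries at 0.326 and 2.55 CPM, Plk4, the kinase that starts centriole duplication, by 2.92 (SE 0.25), and Odf2 of the appendages by 1.52 (SE 0.21). The dynein light chain Dynll1 had the smallest of these falls (-0.40, SE 0.15, adjusted p 0.0403).

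The genes with the largest rise in each list were led by Dync1i1, the dynein intermediate chain known from neurons, which went from 10.6 ± 0.77 to 315 ± 35 CPM (log2 change 4.90, SE 0.13). BC037034, now named Trappc14 and listed with the microcephaly genes, rose by 1.87 (log2, SE 0.27), Clasp2, which stabilizes microtubule plus ends, by 1.37 (SE 0.12), Cep170 of the subdistal appendages by 1.08 (SE 0.17), Usp33, a deubiquitinase with a centriole substrate, by 0.91 (SE 0.22), and Akap9, a large anchor protein of centrosome and Golgi, by 0.77 (SE 0.16). Dlg5 rose by 0.38 (SE 0.11, adjusted p 0.0168). The adjusted p of the other 12 named genes was at most 0.00644.

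Over the 10 libraries the courses of the genes could also be likened to those of 9215 genes (mean count 100 or more) by Pearson's r of log2 CPM. It is given as a description, because libraries share stages and depth. Aspm ran closest to Cdca8 and Ncaph (r = 0.998 for both), which serve in the chromosomal passenger and condensin complexes. Nde1 was nearest to Clic1 (r = 0.998) and Btg2 (r = 0.995), an antiproliferative gene known from neurogenic divisions. Wdr62 was nearest to Chaf1a and Psat1 (r = 0.996 for both), Stil to Gpc4 (0.996) and Rps27l (0.995), and Cit to Ddx39b and Otx1 (0.995 for both). Cep152 was nearest to Gadd45a (0.993) and Kpna2 (0.992), Cep135 to Scaf11 (0.991) and Ccdc77 (0.986), and Cenpj to Nup43 and Bms1 (0.990 for both). Cdk5rap2 reached 0.965 with Srsf11 and 0.946 with Stx4a, and Mcph1 0.938 with Rpap3 and 0.933 with Rsu1. Ndel1 was nearest to Rabep1 (0.992) and Abi1 (0.990). Within the set, Aspm and Stil had r = 0.986 and Aspm and Nde1 r = 0.980, whereas Mcph1 had r between -0.05 and 0.39 with the other 9 genes.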

How the data were processed

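The deposited table holds whole-number counts of ribosome footprints per gene, 1 column per library, which the authors made from reads trimmed of adapters, cleared of duplicates by random end bases and of rRNA, tRNA and snoRNA, and aligned to a GENCODE mouse release (coding transcripts and genome) with STAR (2.7.0 per the labels, an earlier version in the study's methods). Reads with many matches were kept, DeepShape-prime estimated abundance per transcript and tximport summed it per gene; whether the deposited counts come from that step is not stated. Of 22373 gene identifiers, 22274 matched a symbol. All 10 columns were used, and totals ran from 7544404 to 36129988.

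The 13484 genes with 32 or more footprints in the sum of a stage's libraries, at any stage, were fitted with limma-voom (limma 3.58.1, R 4.3.3) on TMM-scaled counts, 1 coefficient per stage, two-sided, with Benjamini-Hochberg adjustment over all of them; called means an adjusted p under 0.05 and a fold of at least 1.25, or the adjusted p alone for the F test and for contrasts between steps. This is the test that the study's methods name. Fold changes are later over earlier stage. CPM used TMM factors, with a prior count of 2 for log2 CPM. Differences from the cell cycle median were tested by exact permutation (SciPy 1.17.1), adjusted over 11 comparisons. The fit was tested on simulated counts. edgeR 4.0.16 quasi-likelihood, DESeq2 1.42.0, other scalings, no filter, sample quality weights, a replicate block, fits of the stages compared alone and leaving out each library were the alternatives; leaving out E14 was added after the data were seen.

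The 10 genes and all lists were chosen with earlier results of these data known, so lists are described by counts and medians with no test. Named list genes are the called gene with the largest rise and the largest fall from E12.5 to P0 in each of 7 lists (mean of at least 100 counts), and like genes are the 2 with the highest Pearson's r. Intervals from counts cover counting error only.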

Additional observations from a re-analysis of the deposited data

How the results depend on the processing

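None of the 21 called changes of single genes reversed under any of 19 settings; 64 of their 399 refits missed the threshold. Where a value changed with a setting, the cause was not tested. Depth limits the P0 values of Stil, Aspm, Cep135 and Cep152, and 2 libraries per stage limit each step. From E12.5 to E14, sample quality weights gave 1 called gene and leaving out single libraries 0 to 2 (2 without either P0 library, Aspm and Stil). From E15.5 to E17, edgeR, DESeq2 and total counts each gave 2, and no filter and the replicate block 1 each, with 0 to 4 when single libraries were left out. From E17 to P0, quality weights gave 1 and the compared stages alone 0, with a range of 1 to 5 (5 without P0 replicate 1, 4 lower and 1 higher). For the contrast of E14 to E15.5 against E12.5 to E14, no filter, total counts and the replicate block gave 0, quality weights and the compared stages alone 2, with a range of 0 to 2; for E15.5 to E17 against E14 to E15.5 the last pair of settings gave 1 each, with a range of 0 to 1. The correlations between stages of the deviation of replicate 1 from replicate 2 ran from -0.63 to 0.43. Those with E12.5 were all negative and most of the others positive, and whether the replicate numbers pair the libraries was not tested. The replicate block changed no other count of the genes studied by more than 1.5 times. In the cell cycle comparison, 6 genes passed with the S phase list only, 0 with the G2 and M phase list only and 6 with E15.5 counted as late. In the last of these, Nde1 minus Ndel1 was -2.98 (adjusted p 0.021). With single libraries left out, or permuted within replicate numbers, no p under 0.05 could be reached (smallest 0.0571 and 0.0556). With total counts as the only scaling, the median gene moved by 0.29 (log2) at E14 to E15.5 and 0.51 at E12.5 to P0, and the share of higher among called genes went from 45.6% to 72.7% and from 48.5% to 72.0%. At E12.5 to E14 that share went from 77.9% to 90.9%, and at E17 to P0 from 46.1% to 63.3%. The counts of all genes called, 86, 1219 and 2767 at E12.5 to E14, E15.5 to E17 and E17 to P0, were 655, 3717 and 698 with quality weights and 8, 3212 and 0 with the compared stages alone; DESeq2 gave 388, total counts 143, no filter 27 and the replicate block 9 in place of 86, and no filter 773 and the replicate block 796 in place of 1219. Those of the contrasts between steps, 504 and 1130, were 1636 and 4173 with quality weights and 1219 and 3453 with the compared stages alone, with 256 under the replicate block for the former and 1704 with total counts for the latter. Small uncalled changes turned sign with total counts: Cdk5rap2 0.066, Cenpj 0.059 and Mcph1 0.12 at E14 to E15.5, Mcph1 0.017 at E15.5 to E17, Cenpj 0.088 and Cep135 0.0064 at E17 to P0, and Cit -0.15 for the second contrast. Others were Cenpj 0.014 at E17 to P0 with RLE factors, Mcph1 0.00023 at E15.5 to E17 with DESeq2 and Mcph1 -0.048 from E12.5 to P0 with quality weights. Leaving out single libraries gave ranges of -0.27 to 0.045 for Cenpj, -0.56 to 0.16 for Cep135, -0.26 to 0.62 for Mcph1 and -0.25 to 0.46 for Ndel1 at E17 to P0, of -0.56 to 0.33 for Mcph1 from E12.5 to P0, of -0.27 to 0.21 for Mcph1 and -0.11 to 0.22 for Ndel1 at E15.5 to E17, and of -0.047 to 0.22 for Ndel1 at E12.5 to E14.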
